A study of Mus musculus with 10 samples.

Results

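The 39 genes described here mark macrophages and monocytes or carry out their best known tasks: surface markers, complement, Fc and scavenger receptors, the phagocyte oxidase, lysosomal proteases, major histocompatibility complex (MHC) class II and CC chemokines. They were found by gene symbol among the 27179 genes of the table, and all 39 had a row; osteoclast-specific genes were left out of the set. RNA came from whole pulverized femurs of mice aged 3 or 4 weeks, with the age not given per mouse. Of the 10 mice, 5 carried 1 copy of the Fgfr1 allele N330I (Fgfr1+/N330I, here called mutant; 3 labelled female and 2 labelled male) and 5 were wild-type (WT) littermates (3 labelled female and 2 labelled male). No treatment is named, the strain is not given in the sources used here, and each mouse gave 1 library. Because whole bone was ground, each value below sums RNA over all cells present, osteoclasts included. Fewer macrophages, less RNA per macrophage and a part from other cells cannot be told apart in any of them.

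Macrophages arise from monocytes or from embryonic precursors, depend on the receptor Csf1r, and are shaped by transcription factors such as PU.1 (encoded by Spi1) and Irf8. They take up dead cells, opsonized particles and lipoproteins through dedicated receptors, break them down in lysosomes and, when induced, present peptides on MHC class II molecules. In bone, resident macrophages line the surfaces beside osteoblasts, and osteoclasts come from the same lineage.

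Values were DESeq2-normalized counts, summing to 24904802 to 39606608 per library, with an estimated 18.1 M to 30.6 M reads behind them. Female WT 3 carried 28.8% of its counts on the ribosomal RNA precursor Rn45s, against 0.149% to 0.428% elsewhere. Male WT 1 had relatively more counts on short genes: the slope of log2 deviation on log10 exon length was -1.88 there and between -0.52 and 0.52 in the other 9 libraries. Xist, from the inactive X chromosome, was at 7972 and Y-linked Ddx3y at 4 in the library labelled male mutant 2, where the other males had 14 to 48 and 1558 to 1936. The females had 14007 to 19641 for Xist and 0 to 4 for Ddx3y, so the Xist value of that library lay between those of the other males and the females. This library is named by its label throughout. Blood cells were almost unseen, with neutrophil markers summing to 18 to 119, B cell markers to 37 to 152 and erythroid markers to 9 to 79 per library. Among 8 dendritic cell markers, Xcr1 and Siglech were at 0 in all libraries, and 5 of the 8 stayed under 10. Fgfr1 itself had a mean of 11124.8 ± 1973.66 among mutants and 8082.4 ± 2706.71 among WT littermates (SD, n = 5 each), counts that do not separate the alleles.

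Defining macrophage markers were present in every library. Per kilobase of exon, the scale on which genes can be compared, the mean over the 10 libraries was highest for Lyz2, lysozyme M of myeloid cells, at 215772. Next came Ctss, a lysosomal protease, at 21873, and then C1qb, C1qc and C1qa, the chains of complement C1q, at 21796, 20726.5 and 19667. Cd68, a lysosomal membrane protein, followed at 17729 and the adaptor Tyrobp at 16914. All of these genes have under 1500 exon bases and were highest in male WT 1. Ctss, for example, was at 63794 there and at most at 40660 elsewhere. The order among genes with close means may therefore rest on that library. The lowest were the monocyte chemokine receptor Ccr2 at 14.9, the complement receptor Vsig4 at 3.21 and the hemoglobin scavenger receptor Cd163 at 1.76. Phagocyte genes were thus abundant, while the receptor that recruits blood monocytes was near the floor.

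**Figure D1:**
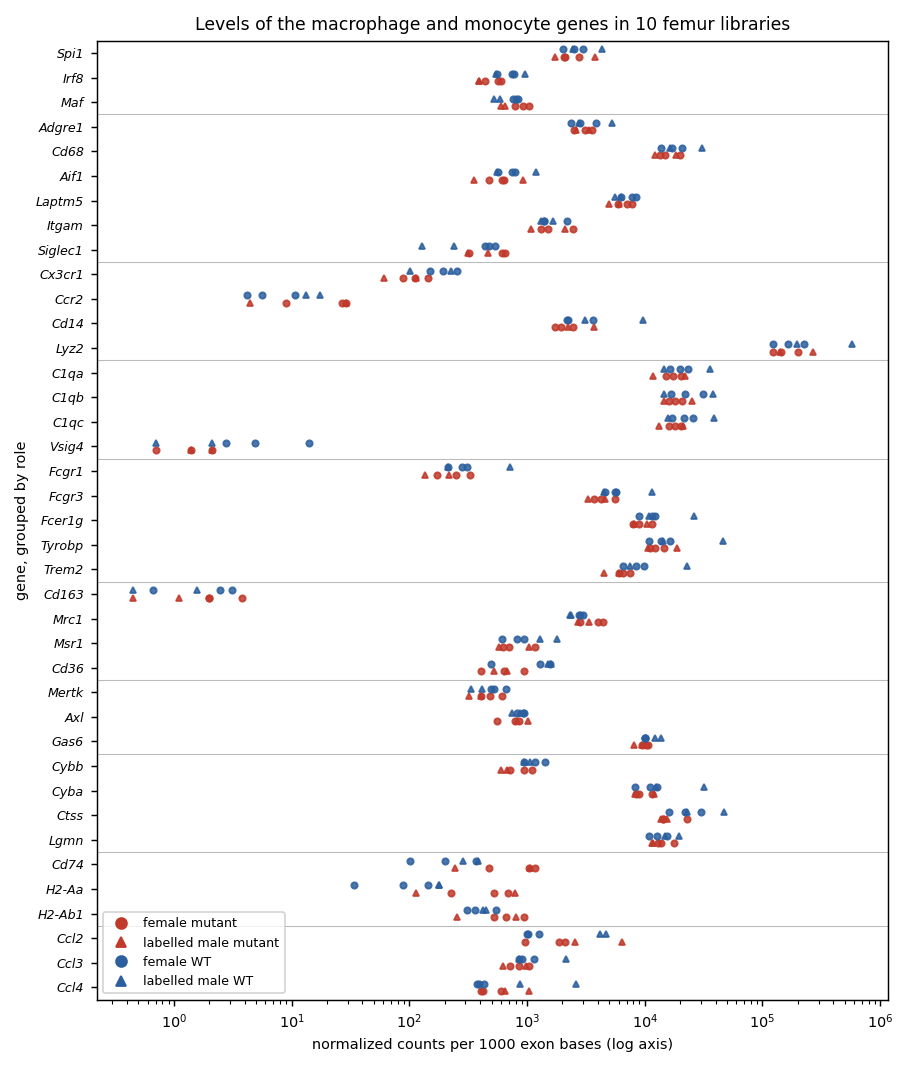
Normalized counts per kilobase of exon (log axis) of the 39 genes, grouped by role, with 1 point per library; red marks mutants, blue WT, circles female and triangles male-labelled libraries. Lyz2 lies above all others, and Ccr2, Vsig4 and Cd163 lie lowest.

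Together the 39 genes held 1.42% of the counts outside Rn45s in the library labelled male mutant 2, the lowest, and 3.68% in male WT 1, the highest. The next highest library after male WT 1 was at 2.26%. Mutant libraries spanned 1.42% to 2.11% and WT libraries 1.46% to 3.68%, so the groups overlapped. Lyz2 alone made up 34.2% to 54.5% of the summed counts of the set. Lyz1, a near copy of Lyz2 that could share its reads, stood at only 82 to 398 normalized counts.

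Sequences before the gene starts are shown for pairs of genes that follow each other in the values below, the neighbouring C1q genes and the class II genes H2-Aa and H2-Eb1. They come from RefSeq (GRCm38.p6), are written in the direction of transcription, and carry in capitals the match to a searched motif. The first was GAGGAA, a purine-rich core of the kind PU.1 binds, and the other was CTGATTGG, the Y box core known from class II promoters; each was searched on both strands, and a match on the reverse strand reads TTCCTC. Promoters were held for 27 of the 39 genes. Within 250 bases before the start, GAGGAA was found in 14 of these 27 (51.9%) and in 23.3% of 32851 promoter windows. CTGATTGG was found in 3 of 27 (11.1%: Cd36, H2-Aa and Irf8) and in 3.83% of all windows. The set was counted by gene, with a match in any window of the gene, and the background by window. Where a gene has several windows, these shares are not like for like. Among class II genes with a promoter held, CTGATTGG was in H2-Aa, H2-Eb1 and H2-Oa and not in H2-DMa or H2-DMb1. Promoters of Cd74 and H2-Ab1 were not held. H2-Oa, near the floor, was highest in the library labelled male mutant 2 and so did not follow H2-Aa and H2-Eb1. A match is a description of letters, not of a bound site.
C1qb, chr4:136886201-136886350, minus strand: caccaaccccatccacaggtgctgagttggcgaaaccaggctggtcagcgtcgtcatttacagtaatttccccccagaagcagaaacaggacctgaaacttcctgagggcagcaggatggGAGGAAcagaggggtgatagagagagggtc
C1qc, chr4:136892915-136893114, minus strand: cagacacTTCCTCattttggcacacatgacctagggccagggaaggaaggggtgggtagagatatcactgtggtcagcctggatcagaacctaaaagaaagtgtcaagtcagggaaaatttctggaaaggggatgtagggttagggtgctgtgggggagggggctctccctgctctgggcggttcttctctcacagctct
H2-Aa, chr17:34287824-34287973, minus strand: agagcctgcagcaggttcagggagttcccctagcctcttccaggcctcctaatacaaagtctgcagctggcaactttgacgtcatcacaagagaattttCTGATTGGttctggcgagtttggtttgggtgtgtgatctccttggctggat
H2-Eb1, chr17:34305717-34305866, plus strand: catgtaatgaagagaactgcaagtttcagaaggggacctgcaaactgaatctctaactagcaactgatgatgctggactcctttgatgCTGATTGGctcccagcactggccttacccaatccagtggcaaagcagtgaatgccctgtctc
Counted from the RefSeq start of each gene, the match begins 30 bases before it for C1qb, 193 for C1qc, 51 for H2-Aa and 62 for H2-Eb1. For C1qb and H2-Aa that start lies upstream of the gene end listed in the deposited table.

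The study's main contrast asks how femurs with the Fgfr1 allele differ from those of WT littermates. In limma with Benjamini-Hochberg adjustment over 14362 genes, 0 of the 37 tested macrophage genes passed an adjusted p under 0.05, and 0.0% of all genes did. The smallest adjusted p among the 37 was 0.659 (Cybb), and among all genes 0.237. At an unadjusted p under 0.05 stood 9 of the 37 (24.3%) against 907 genes (6.32%). Of these 9, 3 had higher means in the mutants (8.11%, against 3.69% of all genes) and 6 lower (16.2%, against 2.62%). The median estimate over the 37 was -0.30 on the log2(normalized count + 1) scale, mutant minus WT, with 28 below 0 and 9 above. Over all genes the median was -0.01, with 48.2% above 0. In none of the 37 did the 5 mutant values and the 5 WT values separate without overlap, while 0.829% of all genes did so.

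Male WT 1 bears on that median. Without it the median over the 37 was -0.11, with 25 below 0 and 12 above, and with the library labelled male mutant 2 and female WT 3 left out as well it was 0.00, with 18 below and 19 above. Male WT 1 was the highest library for 22 of the 39 genes, and the library labelled male mutant 2 the lowest for 17. Of the 20 tested genes with under 1500 exon bases, 16 were above all other 9 libraries in male WT 1, at a median of 2.5 times the other libraries' median. Of the 12 genes with 3000 or more bases, 3 were above all others and 3 below, at a median of 1.16 times. Siglec1, the longest, lay at 0.272 times. Over all tested genes, male WT 1 was the highest library for 31.8%. Scaling for exon length within each library, an alternative chosen after seeing the data, gave a median estimate of -0.19.

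**Figure D2:**
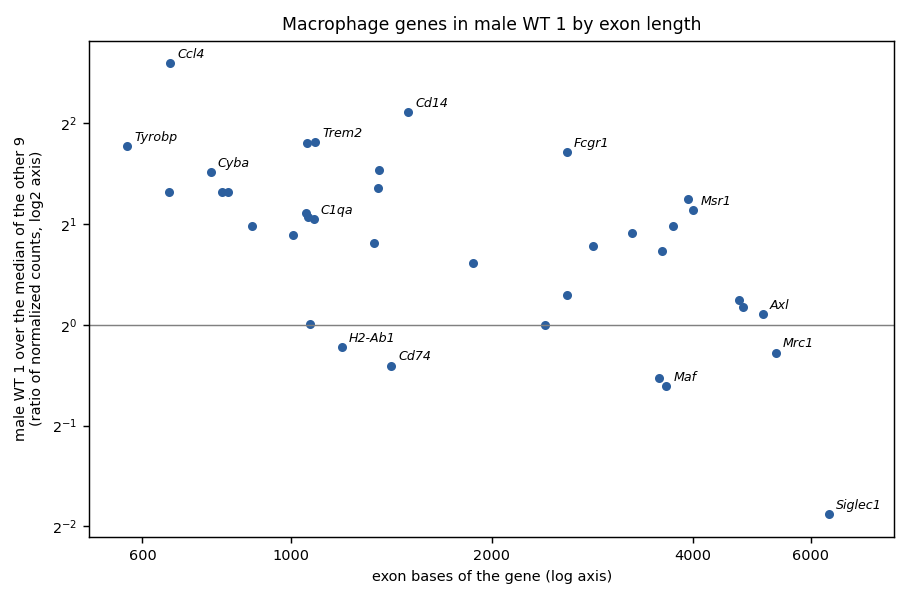
Ratio of male WT 1 to the median of the other 9 libraries (log2 axis) for the 37 tested genes, against exon bases (log axis); each point is a gene and the line marks a ratio of 1. Short genes such as Ccl4, Cd14 and Tyrobp lie high, and Siglec1, the longest, lies lowest at 0.272.

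**Figure D3:**
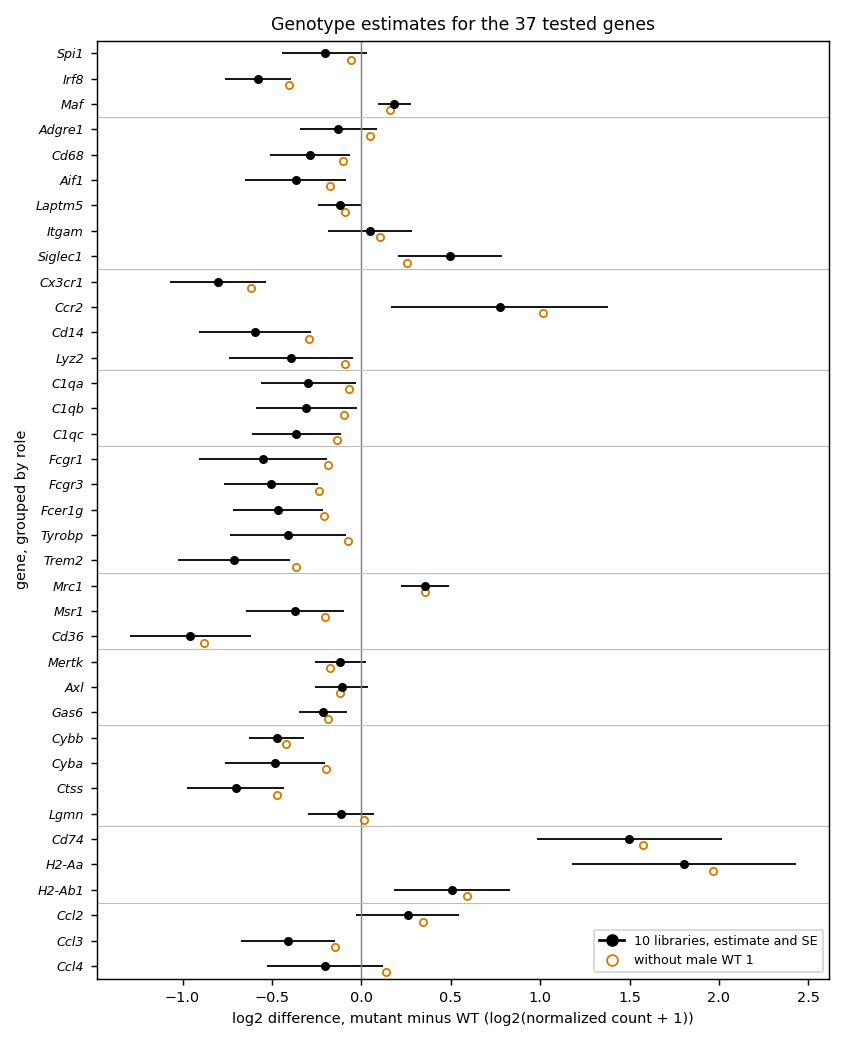
Genotype estimates (log2, mutant minus WT) with SE for the 37 tested genes, grouped by role; open circles give the same estimate without male WT 1. Most estimates lie below 0, many move toward 0 without male WT 1, and Cd74 and H2-Aa lie farthest above it.

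Among the lineage transcription factors, Irf8, needed for monocyte and dendritic cell development, had a lower mean in the mutants, as did Spi1 (3328 against 3815.4). Its values were 1693, 1608 and 1233 in female mutants 1 to 3 and 1113 and 1101 in the libraries labelled male mutant 1 and 2, against 1569, 2193 and 2110 in female WT 1 to 3 and 2708 and 1546 in male WT 1 and 2. The lowest WT libraries lay inside the mutant range. Means were 1349.6 ± 281.1 and 2025.2 ± 484.59 (SD, n = 5 each), an estimate of -0.58 ± 0.19 (SE) with a limma adjusted p of 0.668, and -0.40 without male WT 1. Spi1, the gene of PU.1, was estimated at -0.20 ± 0.24 (-0.06 without male WT 1), and Maf, a factor of resident macrophages, at 0.18 ± 0.09. Exons of Irf8 share 582 of 2829 bases with an unnamed row of the table, and the strand setting of the counting is not given in the sources used here, so reads from that stretch cannot be told apart.

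Of the 6 pan-macrophage markers, 4 had estimates below 0 and 2 above, with 0 past the threshold. Adgre1, an adhesion receptor used as a pan-macrophage marker, ranged from 8181 to 11585 in the mutants and from 7643 to 17061 in WT mice, with an estimate of -0.13 ± 0.21 that was 0.05 without male WT 1. Estimates for Cd68, Aif1, a calcium-binding protein of macrophages, and Laptm5, a lysosomal membrane protein, were -0.29 ± 0.22, -0.37 ± 0.28 and -0.12 ± 0.12, and without male WT 1 -0.11, -0.17 and -0.09. Itgam, the CD11b integrin chain, was at 0.05 ± 0.24, and at 0.10 without male WT 1. Siglec1, a sialic acid-binding lectin of resident macrophages, was at 0.50 ± 0.29, and at 0.26 without male WT 1, its lowest library. None of these 6 estimates had a limma unadjusted p under 0.05.

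Monocyte receptors went in different directions by estimate. Cx3cr1, the fractalkine receptor, was at 419, 542 and 328 in the female mutants and 229 and 427 in the male-labelled mutants. In WT mice it was at 942, 717 and 557 in the females and 841 and 375 in the males. Only male WT 2 fell within the mutant range. Means were 389.0 ± 117.34 and 686.4 ± 225.77 (SD, n = 5 each), an estimate of -0.80 ± 0.27, limma adjusted p 0.709, and -0.62 without male WT 1. Ccr2, which draws monocytes from blood, was estimated at 0.77 ± 0.61 from values of 15 to 104, close to the floor. Cd14, the lipopolysaccharide co-receptor, was at -0.60 ± 0.31, or -0.29 without male WT 1, where it reached 14551. Lyz2 was at -0.39 ± 0.35, or -0.09 without male WT 1, where it reached 607202.

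The 3 C1q genes, which lie side by side on chromosome 4 (C1qb 136880145 to 136886177, C1qc 136889802 to 136892914, C1qa 136895916 to 136898844, mm10), kept nearly the same proportions in every library. C1qa stood at 22163, 18728 and 16399 in the female mutants and 24011 and 12703 in the male-labelled mutants. Its WT values were 17573, 25263 and 21552 in females and 38675 and 15730 in males. The ratio of C1qa to C1qc was 0.908 to 1.08 over the 10 libraries, and that of C1qb to C1qc 0.921 to 1.23. Male WT 1 was the highest library for each of the 3 genes. Genotype estimates were -0.30 ± 0.27 for C1qa, -0.31 ± 0.28 for C1qb and -0.36 ± 0.25 for C1qc, the last with a limma adjusted p of 0.795. Without male WT 1 they were -0.07, -0.09 and -0.13. Exons of C1qb share 570 of 1062 bases with an unnamed row, so its counts are the least certain of the 3. Vsig4, a receptor for complement C3 fragments, was listed at 1 to 20 and was too low to test.

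Fc receptors and the ITAM adaptors through which they signal all had estimates below 0 (5 of 5), none past the threshold. Trem2, a lipid-sensing receptor that signals through Tyrobp, stood at 8187, 7144 and 6612 in the female mutants and 6539 and 4861 in the male-labelled mutants. In WT mice it stood at 7087, 10809, 9241, 25047 and 8204, in the order of female WT 1 to 3 and male WT 1 and 2. Female WT 1 lay inside the mutant range, and male WT 1 stood far above all other libraries. The Trem2 estimate was -0.71 ± 0.31, limma adjusted p 0.784, and -0.37 without male WT 1. Fcgr3, a low-affinity IgG receptor, was at -0.51 ± 0.26, Fcgr1, the high-affinity one, at -0.55 ± 0.36, the common gamma chain Fcer1g at -0.47 ± 0.25 and Tyrobp at -0.41 ± 0.32. Without male WT 1 these 4 were at -0.23 for Fcgr3, -0.18 for Fcgr1, -0.21 for Fcer1g and -0.08 for Tyrobp.

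Scavenger and endocytic receptors were split. Mrc1, the mannose receptor, had values of 23599, 21315 and 14930 in the female mutants and 17808 and 14317 in the male-labelled mutants. WT values were 14829, 15080 and 15930 in females and 12442 and 12562 in males. The 3 highest libraries were mutants, and the ranges overlapped between 14317 and 15930. Means were 18393.8 ± 4018.36 and 14168.6 ± 1575.72 (SD, n = 5 each), an estimate of 0.36 ± 0.14, limma adjusted p 0.739, and 0.35 without male WT 1. Cd36, a receptor for lipids that endothelial cells and adipocytes also carry, was at 1592, 3735 and 2495 in the female mutants and 2076 and 2632 in the male-labelled mutants. Its WT values were 5065, 1947 and 6155 in females and 6240 and 5903 in males, and only female WT 2 fell within the mutant range. The Cd36 estimate was -0.96 ± 0.34, limma adjusted p 0.710. Summed endothelial markers ran from 1741 to 19903 in the mutants and 9388 to 22327 in WT mice. Adipocyte markers summed to 9599 to 12687 and 12791 to 17013, mostly through Lpl (means 7761.8 and 11432) and Fabp4 (2352.6 and 3255.6). By gene, 3 of the 5 tested adipocyte estimates were above 0 (Adipoq 1.15, Plin1 2.08 and Cfd 1.46) and 2 below, so the sum does not stand for the list. The part of endothelial cells and adipocytes in the Cd36 values was not tested. Msr1, a scavenger receptor for modified lipoproteins, was at -0.37 ± 0.27 (-0.20 without male WT 1), and Cd163 was listed at 2 to 17, too low to test.

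Genes for the uptake of apoptotic cells by TAM receptors had small estimates. The receptor Mertk was estimated at -0.12 ± 0.14, the receptor Axl at -0.11 ± 0.15 and their shared ligand Gas6 at -0.22 ± 0.13. Gas6 ranged from 21173 to 27782 in the mutants and from 25934 to 35551 in WT mice. Stromal cells also make Axl and Gas6, so their values are not those of macrophages alone.

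The oxidase and protease genes again all had estimates below 0 (4 of 4). Cybb, the catalytic chain of the phagocyte oxidase, stood at 5227, 4518 and 3416 in the female mutants and 3229 and 2866 in the male-labelled mutants. In WT mice it stood at 4475, 6761 and 5591 in females and 5073 and 4502 in males. The groups overlapped between 4475 and 5227. Means were 3851.2 ± 985.47 and 5280.4 ± 946.87 (SD, n = 5 each), an estimate of -0.47 ± 0.15, limma adjusted p 0.659, and -0.42 without male WT 1. Its partner chain Cyba was at -0.48 ± 0.28, and the ratio of Cyba to Cybb, 1.39 to 2.81 in the other 9 libraries, was 4.73 in male WT 1, where the short Cyba was high and the long Cybb was not. Ctss, which trims the class II invariant chain, had means of 21870.2 ± 5026.88 and 37406.4 ± 16177.66 (SD, n = 5 each). Its values were 30731, 19262, 19548, 21055 and 18755 in the mutants, females first, and 21986, 40660, 29564, 63794 and 31028 in WT mice. Only female mutant 1 lay above the lowest WT value of female WT 1, and the estimate was -0.70 ± 0.27, limma adjusted p 0.739, and -0.47 without male WT 1. Lgmn, an asparagine-specific lysosomal protease, was at -0.11 ± 0.18. Without male WT 1, Cyba was at -0.20 and Lgmn at 0.02, so 3 of 4 were then below 0. Exons of Cybb share 571 of 4752 bases with an unnamed row.

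The MHC class II genes H2-Aa and Cd74 had the largest estimates above 0. Cd74, the invariant chain, stood at 1660, 671 and 1469 in female mutants 1 to 3 and 1507 and 344 in the libraries labelled male mutant 1 and 2. WT values were 143, 521 and 283 in females and 408 and 540 in males, so 4 of 5 mutants lay above every WT library. The means were 1130.2 ± 584.47 and 379.0 ± 167.21 (SD, n = 5 each), an estimate of 1.50 ± 0.52 with a limma adjusted p of 0.710. H2-Aa, a class II alpha chain, followed the same libraries, at 739, 240 and 564 in the female mutants and 845 and 121 in the male-labelled mutants. Its WT values were 36, 154 and 94 in females and 191 and 190 in males. The H2-Aa estimate was 1.80 ± 0.63, limma adjusted p 0.710. H2-Ab1, the paired beta chain, differed less: 302 to 1127 in the mutants and 371 to 647 in WT mice, an estimate of 0.51 ± 0.32. Over the alternatives the Cd74 estimate ran from 1.16 to 1.96 and that of H2-Aa from 1.40 to 2.48. Without male WT 1 they were 1.57 and 1.97. Without female WT 1, the lowest library for Cd74 and H2-Aa, they were 1.16 and 1.40.

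The high values were carried by the same 3 mice. Female mutants 1 and 3 and male mutant 1 were the 3 highest libraries for Cd74, H2-Aa, H2-Ab1, H2-Eb1, Ciita and Ccr2, 6 of 11 genes looked at, and not for H2-Oa, H2-DMa, H2-DMb1, Adgre1 or C1qa. In the same order of libraries, they were also the 3 highest for the complement gene C4b (12425, 11149 and 7504). They were the 3 lowest for the endothelial genes Pecam1 (210, 2059 and 2546), Emcn (47, 313 and 497) and Cdh5 (382, 3529 and 3612). The split is thus not particular to class II genes and Ccr2, and the share of all genes that show it was not counted. These 3 libraries, seen after their values, were not grouped for a test. H2-Eb1, a further class II beta chain, stood at 255, 197, 487, 284 and 81 in the mutants, females first, and at 27, 105, 39, 135 and 126 in WT mice. Its means were 260.8 ± 148.44 and 86.4 ± 50.13 (SD, n = 5 each), an estimate of 1.63 with a limma adjusted p of 0.710. Ciita, the transactivator that switches class II genes on, stood at 18.4 ± 12.62 and 5.8 ± 4.32 (SD, n = 5 each) and was too low to test. The ratio of H2-Aa to H2-Ab1 was 0.383 to 0.928 in the mutants and 0.097 to 0.376 in WT mice, and that of Cd74 to H2-Ab1 1.07 to 2.09 and 0.385 to 1.07. In these ratios, chosen after their values were seen and not tested, the groups did not overlap. For the Cd74 ratio they came within rounding of each other, and for the H2-Aa ratio they were close (0.383 and 0.376). The remaining class II ratio, Cd74 to H2-Aa, overlapped, at 1.78 to 2.84 in the mutants and 2.14 to 3.97 in WT mice. Every other ratio computed between members overlapped too, and how often other gene pairs separate was not tested. Summed T and NK cell markers ran from 184 to 687 in the mutants and 167 to 509 in WT mice, B cell markers from 37 to 124 and 48 to 152, and dendritic cell markers from 2940 to 3524 and 2674 to 6540. Each sum was mostly 1 gene: Cd4 (means 474.6 and 264.2), Ighm (53.8 and 93.6) and Bst2 (3147.6 and 4102.8). Other markers were near the floor, such as Cd3e at a mean of 0.8 in each group and Flt3 at 3.8 and 4. The sums are therefore no measure of these cells. The part of such cells in the class II values was not tested.

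**Figure D4:**
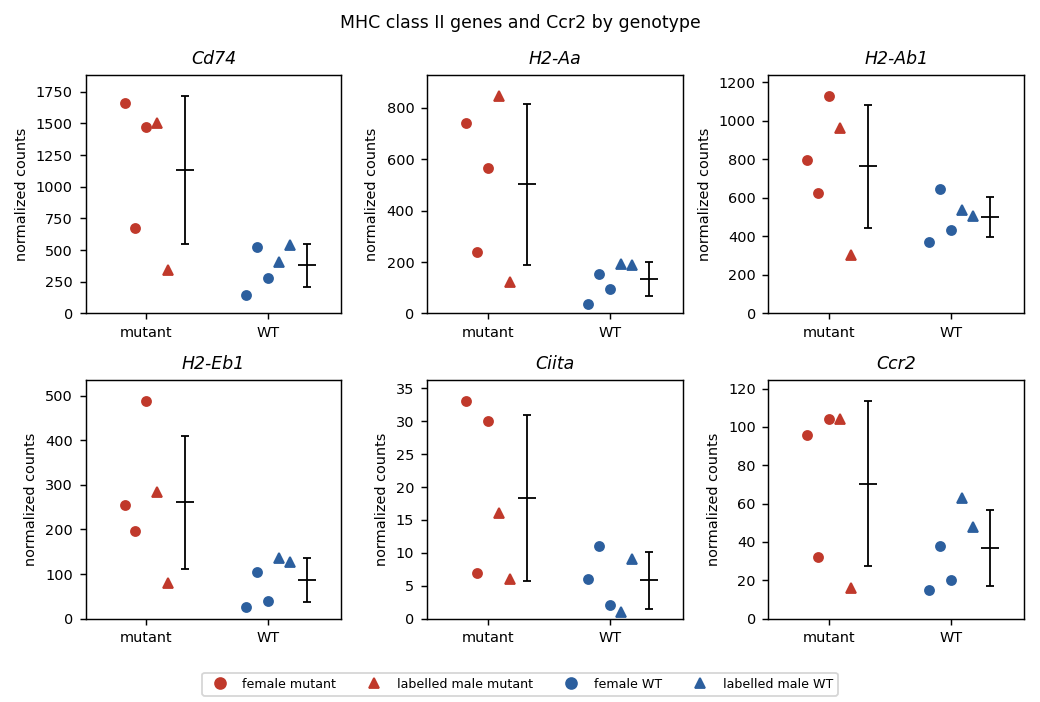
Normalized counts of the class II genes, Ciita and Ccr2 in each library by genotype, with the mean and SD of the 5 libraries beside the points; circles are female and triangles male-labelled libraries. The 3 highest points of every panel are mutants, while the library labelled male mutant 2 lies among or below the WT libraries.

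CC chemokines, which draw monocytes and other leukocytes, showed no genotype difference past the threshold. Estimates were 0.26 ± 0.29 for Ccl2, -0.41 ± 0.26 for Ccl3 and -0.20 ± 0.32 for Ccl4. Without male WT 1, Ccl3 was at -0.15 and Ccl4 at 0.14; in that library Ccl4 reached 1717 against 246 to 688 elsewhere.

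Other genes of macrophage biology were taken from 9 lists, and 0 members of any list passed the genotype threshold in limma. In the CSF1 and GM-CSF axis 5 of 6 estimates were below 0, with Csf2ra at -0.30 and Csf1 at 0.27. Among those below 0, the receptor Csf1r (-0.07 ± 0.19) and Il34 (-0.05 ± 0.22) were small against their SE. Of 20 further phagocyte receptors and signalling genes, 18 were below 0. Within females it was 13 of 20 (median -0.11), and within labelled males 19 of 20 (median -0.43). The sum of the 20 was highest in male WT 1 and lowest in the library labelled male mutant 2, so the count leans on those libraries. Clec7a (dectin-1, a receptor for fungal glucans) was at 741, 533, 639, 710 and 709 in the mutants and 756, 885, 950, 1895 and 1067 in WT mice, all mutants below all WT libraries. Groups that did not overlap, with the mutants lower, were seen in 0.334% of all genes tested. The Clec7a estimate was -0.67, limma adjusted p 0.563. Itgax, the CD11c integrin chain, was at -0.95. Among 10 further chemokine and receptor genes 6 estimates were above 0 and 4 below, with the chemokine Cxcl16 at -0.55.

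All 4 further oxidase subunits were below 0 (Ncf1 -0.33), as were 8 of 10 other regulators, led by Cebpa, a myeloid transcription factor, at -0.58 (limma adjusted p 0.447) and Irf5 at -0.57. Within females 4 of 4 oxidase subunits (median -0.20) and 6 of 10 regulators (median -0.12) were below 0. The summed oxidase subunits were highest in male WT 1 and lowest in the library labelled male mutant 2. Of 9 other complement genes 6 were above 0, with C4b at 1.88 and the C3a receptor C3ar1 at -0.57. Resident macrophage genes were evenly split, 5 above and 5 below, with the adhesion molecule Vcam1 at 0.36 and the metal transporter Slc11a1 at -0.43. Among 8 tested inflammatory and alternative activation genes 5 were above 0, Arg1 at 1.39 and Il6 at 0.42. Of the 3 other class II genes tested, H2-DMa, which helps load peptides, was at -0.22, apart from the 1.63 of H2-Eb1. Without male WT 1, the estimates that moved by over 1.5 times among those given for these lists were Csf1 (0.11), Cxcl16 (-0.31), Ncf1 (-0.13), Irf5 (-0.37), C3ar1 (-0.36) and Slc11a1 (-0.28). Csf1r and Il34 were not looked at in this way. Osteoclast markers, from cells of the same lineage, had 9 of 10 estimates above 0 and a median of 1.25, with sums of 62835 to 337065 in the mutants and 34301 to 101352 in WT mice, and 0 past the threshold. The part of osteoclasts in the values of the macrophage genes was not tested.

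Within females, limma called 2 genes of 14362 for genotype (0.0139%) and 0 of the 37 macrophage genes. The 2 were Eif3j2 and Gm3650, named after their values were seen. At an unadjusted p under 0.05 were 2 of the 37 (5.41%, against 4.44% of all genes), Cd74 at 2.09 ± 0.63 and H2-Aa at 2.51 ± 0.76. The female median over the 37 was -0.12, with 23 below 0. Within labelled males, 0 of 37 and 0.0% of all genes were called. There 11 of 37 had an unadjusted p under 0.05 (29.7%, against 8.31%), 10 of them with lower mutant means (27.0%, against 3.89%), and the median was -0.56 with 29 below 0. Male WT 1, with its high short genes, is 1 of the 2 WT males behind that median. The difference between the effects in labelled males and females was called for 0 of 37 and 0.0% of all genes, with 2 of 37 at an unadjusted p under 0.05 (5.41%, against 3.92%). These were Gas6 at -0.58 ± 0.21 and Lgmn at -0.72 ± 0.31, limma adjusted p 0.801 for each.

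The contrast with most calls was that of labelled sex. Male-labelled and female libraries also carry different series of library names, so labelled sex and library series cannot be told apart. The library labelled male mutant 2 has a name of the male-labelled series but goes against its label in Xist and Ddx3y. For Ccl2, Ccl4 and Maf, given below, it lay on the side of the other male-labelled libraries. Whether sex or library series lies behind these differences was not tested. limma called 2886 of 14362 genes (20.1%) and 4 of the 37 macrophage genes (10.8%), a smaller share than among all genes. The chemokines Ccl2 and Ccl4 were higher in the male-labelled libraries (5.41%, against 9.46% of all genes), and Maf and Mertk lower (5.41%, against 10.6%). At an unadjusted p under 0.05 stood 21.6% of the 37 and 39.2% of all genes. Groups did not overlap for Ccl2, Ccl4 and Maf, 8.11% of the 37 against 21.9% of all genes.

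Ccl2 stood at 1499, 779 and 1697 in female mutants 1 to 3, at 827, 1013 and 801 in female WT 1 to 3, and at 5134, 3751 and 3379 in male mutant 1, male WT 1 and male WT 2. The library labelled male mutant 2 had 2052. Every male-labelled library lay above every female one, and the difference was 1.70 ± 0.29 log2, limma adjusted p 0.00875. It stayed past the threshold in each of 18 alternatives, at 1.15 to 2.03. Ccl4 ran from 246 to 397 in the females and stood at 688, 1717, 580 and 430 in the male-labelled libraries in the same order, a difference of 1.37 ± 0.33, limma adjusted p 0.0241. That call was lost without female WT 1 (limma adjusted p 0.0543), female WT 2 (0.0591), female WT 3 (0.0543) or male mutant 1 (0.06). Ccl3, the neighbour of Ccl4 on chromosome 11, ran from 568 to 897 in the females and from 489 to 1700 in the male-labelled libraries, which overlap.

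Maf stood at 3780, 3387 and 2898 in the female mutants, 2776, 2931 and 3047 in the female WT mice, and 2188, 1903, 2135 and 2355 in the male-labelled libraries in the order above. All female libraries were above all male-labelled ones, with a difference of -0.54 ± 0.09, limma adjusted p 0.00837, kept in each of 18 alternatives. Mertk ran from 1444 to 2373 in the females and from 1152 to 1470 in the male-labelled libraries, overlapping only through female mutant 3. Its difference of -0.51 ± 0.15 had a limma adjusted p of 0.0391. The Mertk call was lost with no low-value filter (0.0512), with the exon length correction (0.0553) and without any single library among female mutants 1 (0.0667) and 2 (0.0689), female WT 1 (0.0711), 2 (0.0811) and 3 (0.0612), male mutant 1 (0.1) and male WT 1 (0.0754), each a limma adjusted p. Siglec1 missed the threshold at -0.94 ± 0.30, limma adjusted p 0.0504.

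**Figure D5:**
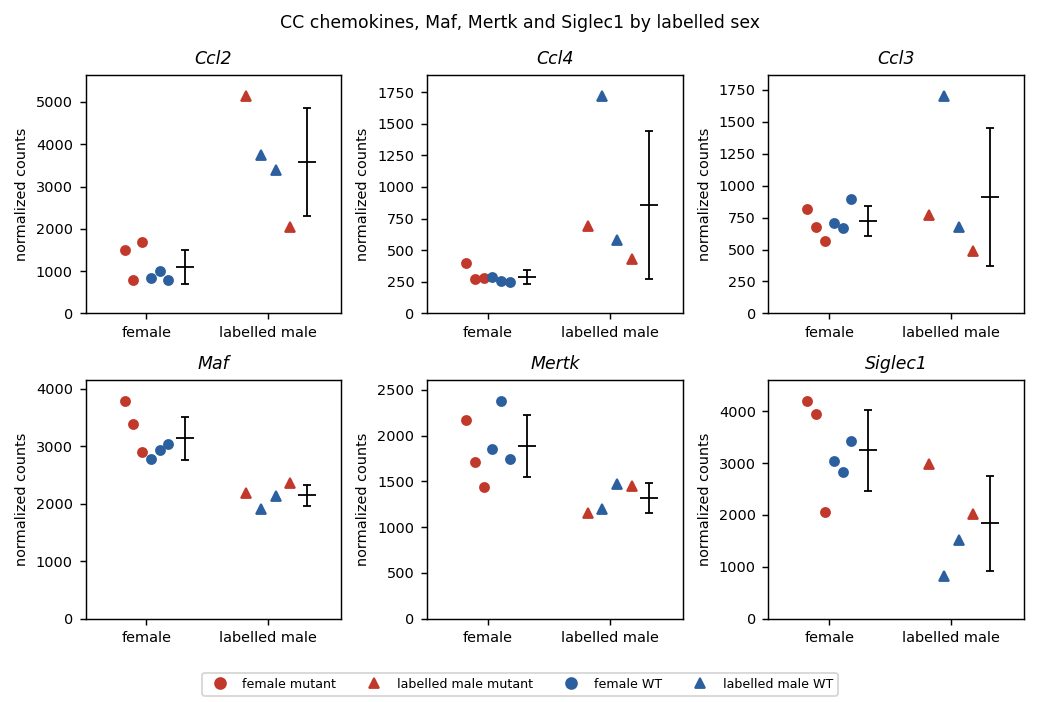
Normalized counts of the chemokines Ccl2, Ccl4 and Ccl3 and of Maf, Mertk and Siglec1 in the 6 female and 4 male-labelled libraries, with mean and SD beside the points; red marks mutants and blue WT. Ccl2, Ccl4 and Maf separate without overlap, and Ccl3, Mertk and Siglec1 overlap.

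Some inflammatory genes outside the set were called in the same contrast. Il6, an inflammatory cytokine, ran from 75 to 161 normalized counts in the females and from 767 to 1578 in the male-labelled libraries, a difference of 3.17 ± 0.21 log2 with a limma adjusted p of 0.00029. Chosen after their values were seen, the cytokine Il1b was at 12 to 32 and 212 to 922, the early response gene Nr4a1 at 934 to 1402 and 9149 to 14862, and the chemokine Ccl7, another ligand of Ccr2, at 637 to 1738 and 2047 to 4768. Their part in the Ccl2 and Ccl4 values was not tested. By list, limma called 3 of 8 tested inflammatory and alternative activation genes higher in the male-labelled libraries (Il1b, Il6 and Il10) and 0 lower, 1 of 10 further chemokine and receptor genes higher (Ccl7) and 2 of 10 other regulators higher (Nr4a1 and Cebpb). It called 2 of 20 further phagocyte genes lower (Itgax and Cd33), and in each other list of macrophage biology at most 1 gene in a direction: Csf2ra, the complement gene C2 and Stab1 lower, Lyve1 higher. Of all genes 9.46% were called higher and 10.6% lower, so 1 of 10 and 2 of 20 are near the background. Among the markers of other cell types, 2 of 5 tested adipocyte genes (Fabp4 and Cfd) and 1 of 10 osteoclast genes (Ctsk) were called higher, and 1 of 6 fibroblast and stroma genes (Lepr) lower; their part in the values of the macrophage genes was not tested.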

How the data were processed

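Total RNA from pulverized femurs was depleted of ribosomal RNA and sequenced (per the labels' protocols). The submitters' processing notes name the genome mm10, STAR 2.5.2b and DESeq2 1.14.1; how reads were counted, and whether by strand, is not given in the sources used here. Each deposited value is a score, a DESeq2-normalized count that was rounded to a whole number, per the file headers and the values. Rounding after scaling meant that whole reads could not be recovered, so the count tests planned for raw counts were not run.

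Genes with 10 or more in at least 5 of 10 libraries were tested (14362; 37 of the 39, without Cd163 and Vsig4) as log2(value + 1), which understates changes of low genes. limma 3.58.1 in R 4.3.3, with trend and robust moderation, was fitted on genotype and labelled sex, and on the 4 group means for effects within and between labelled sexes. Adjustment was by Benjamini-Hochberg over all genes, called under 0.05. 1 read was worth 0.845 to 2.19 normalized counts, estimated from skipped whole numbers; precision is limited by this depth, and estimates of reads cover counting only. In replicates of a group, at most 0.732% of genes had equal values. Each mouse gave 1 library, and groups came from sample titles. The replicate numbers were not used to pair the libraries, apart from the replicate block among the alternatives.

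The members, lists and tests were chosen with earlier results of these data known. Told in most detail were genes past a threshold, the 2 with the smallest p for genotype in each of 10 roles, and the 2 in each list of other genes, of which some are not reported here. Alternatives were pseudocounts, filters, quantile normalization, rescaling, array weights, no sex covariate, the replicate block and leaving out libraries. The exon length correction, and the alternatives applied to other genes, were added after seeing the data.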

Additional observations from a re-analysis of the deposited data

Results flagged for a closer look

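In 3 of 74 sets of 5 libraries (each gene's mutant or WT values), the highest or lowest library stood far from the other 4; chance gives about 1 in 20 such sets. Fcgr3 was at 15745 in male WT 1 and at 6092 to 7772 in the other WT libraries. Ctss was at 30731 in female mutant 1 and at 18755 to 21055 in the other mutants. Cd36 was at 1947 in female WT 2 and at 5065 to 6240 in the other WT libraries.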

How the results depend on the processing

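No macrophage gene passed the genotype threshold under any of 22 alternatives, with 5 to 13 at an unadjusted p under 0.05 (limma). Over all genes 0 were called, but 11 with array weights. Within females (2 called) it was 1 at a pseudocount of 5, with a filter at a mean of 50, with quantile normalization or with the exon length correction, 7 with array weights, and 0 to 1 with single libraries left out. Leaving out single libraries gave 0 to 4362 calls within labelled males and 0 to 2686 for the difference between sexes, the highest without male WT 2, where male WT 1 alone stands for the WT males and is assumed to vary like the other groups. With single libraries left out, labelled sex had 965 to 4044 calls over all genes and 2 to 5 among the 37; among the 37 it had 7 with quantile normalization and 6 with rescaling or array weights. The replicate block kept 0 calls, with 11 of 37 at an unadjusted p under 0.05 (limma) and a median of -0.30. Same-numbered libraries correlated at -0.32 to 0.22 in their deviations from group means. With 2 or 3 libraries per group these deviations are tied to each other, so the correlations cannot show whether the numbers pair mice.

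Estimates that changed sign were all small. With the library labelled male mutant 2, female WT 3 and male WT 1 all left out they were Adgre1 0.0779, C1qa 0.0715, C1qb 0.0035, Aif1 0.0918, Lyz2 0.0386, Tyrobp 0.0502, Lgmn 0.0227, Spi1 0.1119, Ccl3 0.0366 and Ccl4 0.2113. Without female WT 3 and male WT 1, Adgre1 was 0.0283 and Ccl4 0.0935. With array weights Ccl4 was 0.0218 and Itgam -0.0679, and with the length correction Itgam was -0.0184. With single libraries left out, Adgre1 ran from -0.24 to 0.0502, Lgmn from -0.23 to 0.0161, Itgam from -0.0986 to 0.20, Axl from -0.20 to 0.0159 and Ccl4 from -0.36 to 0.14. The causes were not tested. Depth limits Ccr2, Cd163, Vsig4 and Ciita.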
